A study of Cavia porcellus with 238 samples.

Results

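The liver libraries of breeding female guinea pigs (BF, 6 animals) were compared with those of non-breeding females (NF, 6 animals), to see which liver genes differ with reproductive status in females. Members were chosen by column label alone: 12 of the 238 libraries of the count table, each the liver of a different animal. The livers of breeding males (BM, 6 animals) and non-breeding males (NM, 6 animals) entered the same fit and gave the same contrast in the other sex. All animals were Dunkin Hartley guinea pigs of the strain HsdDhl:DH. Breeders lived with a partner of the other sex and their young until weaning, and non-breeders in pairs of the same sex, so that mating, pregnancy, lactation and housing differ together between BF and NF and cannot be told apart. Breeding females were sampled after the second litter had been raised and lactation had ended, so the livers were not from lactating animals. The study removed their partners around the second birth to avoid further pregnancies and dated sampling from the end of the last pregnancy. BF and NF were both 0.95 to 0.97 years old, while 2 BM and 2 NM were 0.74 years old. Libraries were made from whole liver tissue.

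The liver makes most plasma proteins (albumin, clotting factors, complement, apolipoproteins), converts cholesterol to bile acids, switches between fat synthesis and fat oxidation with feeding, and carries receptors for estrogen, prolactin, growth hormone and thyroid hormone. Hepatocytes supply most of its RNA. Kupffer cells, the resident macrophages, and sinusoidal endothelial cells line its blood channels. Pregnancy and lactation are known in other mammals to change liver lipid and bile acid metabolism, and guinea pigs differ from mice and rats in carrying most plasma cholesterol in low-density lipoprotein.

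Counts per library ranged from 13100600 to 19899900 in BF and from 15255600 to 17838000 in NF, and the 10 most abundant genes took 15.99 to 18.98% of the counts in BF and 15.7 to 19.3% in NF. The hepatocyte marker ALB, which encodes albumin, was high in every female liver. It stood between 64980 and 94887 CPM (counts scaled to a common library total after TMM scaling) in BF. In NF it stood between 57195 and 100995 CPM. Not every hepatocyte marker was high: APOA1 had 20.6 to 74.5 CPM in BF. All 16 hepatocyte markers were measured. Of 8 exocrine pancreas markers with counts, PNLIP and CTRC had 0 in all 12 female livers, as had MB of 7 muscle markers. Other members of these 2 lists were present, among them AMY2A (mean of 192 CPM in the female livers), SPINK1 (10.2 CPM) and TAGLN (32.9 CPM). Replicate livers correlated with a Pearson's r of 0.960 to 0.985 in BF and 0.958 to 0.984 in NF across genes (log2 scale), and no pair of livers agreed within sampling noise. The livers NF 03, NF 09, NF 11 and NM 30 stood apart from the other 20. Their TMM factors, which scale each library for its composition, were 0.867 to 0.890, against 0.944 or more in the rest, and their respiratory chain transcripts were the highest of the 24 livers. NF 03, NF 09 and NM 30 also stand first among the liver columns of the count table, ahead of the other livers, which run in the order of their animal numbers. Whether these livers were handled apart was not tested. The called gene and the counts of the main gene lists are given with and without them.

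Of 12474 genes tested, edgeR's quasi-likelihood test with Benjamini-Hochberg adjustment called 2 genes with an FDR below 0.01 (0.016% of those tested), 1 higher and 1 lower in BF. GRIN3B fell in BF livers. At an FDR below 0.05, a threshold added after the data were seen, 37 genes passed (0.297%), 17 higher and 20 lower in BF. At an unadjusted p below 0.05, 1021 genes were higher (8.19%) and 1360 were lower (10.9%) in BF. Every BF liver stood above every NF liver in 64 genes (0.513%) and below every NF liver in 54 genes (0.433%). DESeq2 on the same 24 livers called 73 genes, among which were all 37 with an edgeR FDR below 0.05, and edgeR on the 12 female livers alone called 0 (1746 at an unadjusted p below 0.05), where DESeq2 called 43. Fewer genes passed an unadjusted p below 0.05 over the whole table with the livers that stood apart left out: 668 were higher (5.31%) and 844 lower (6.71%) in BF without NF 03, NF 09 and NM 30, and 405 higher (3.2%) and 445 lower (3.51%) without NF 11 as well. The counts of list members in those fits are to be read against these shares. With all 24 livers they are to be read against 8.19% higher and 10.9% lower.

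GRIN3B encodes a subunit of the NMDA-type glutamate receptor, a channel best known from neurons. The lowest, median and highest levels were 0.445, 1.29 and 1.54 CPM in BF, against 2.66, 4.85 and 10.9 CPM in NF. All BF livers lay below all NF livers, and NF 11 was the highest. The level was 5.08 times lower in BF (log2 fold change -2.34, SE 0.35, edgeR FDR 0.00536). BM livers had 1.79, 2.98 and 3.95 CPM, against 2.58, 4.83 and 8.27 CPM in NM, a log2 fold change of -0.73 (SE 0.32, unadjusted p = 0.0325). The female change was larger than that of males by -1.61 on the log2 scale (unadjusted p = 0.00211), which did not pass adjustment over all genes. GRIN3B lost the call when BF 02, BF 05, BF 14, BF 15, NF 09 or NF 11 was left out, with FDRs up to 0.0239. Its log2 fold change without NF 03, NF 09, NF 11 and NM 30 was -1.76 (FDR 0.158).

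**Figure D1:**
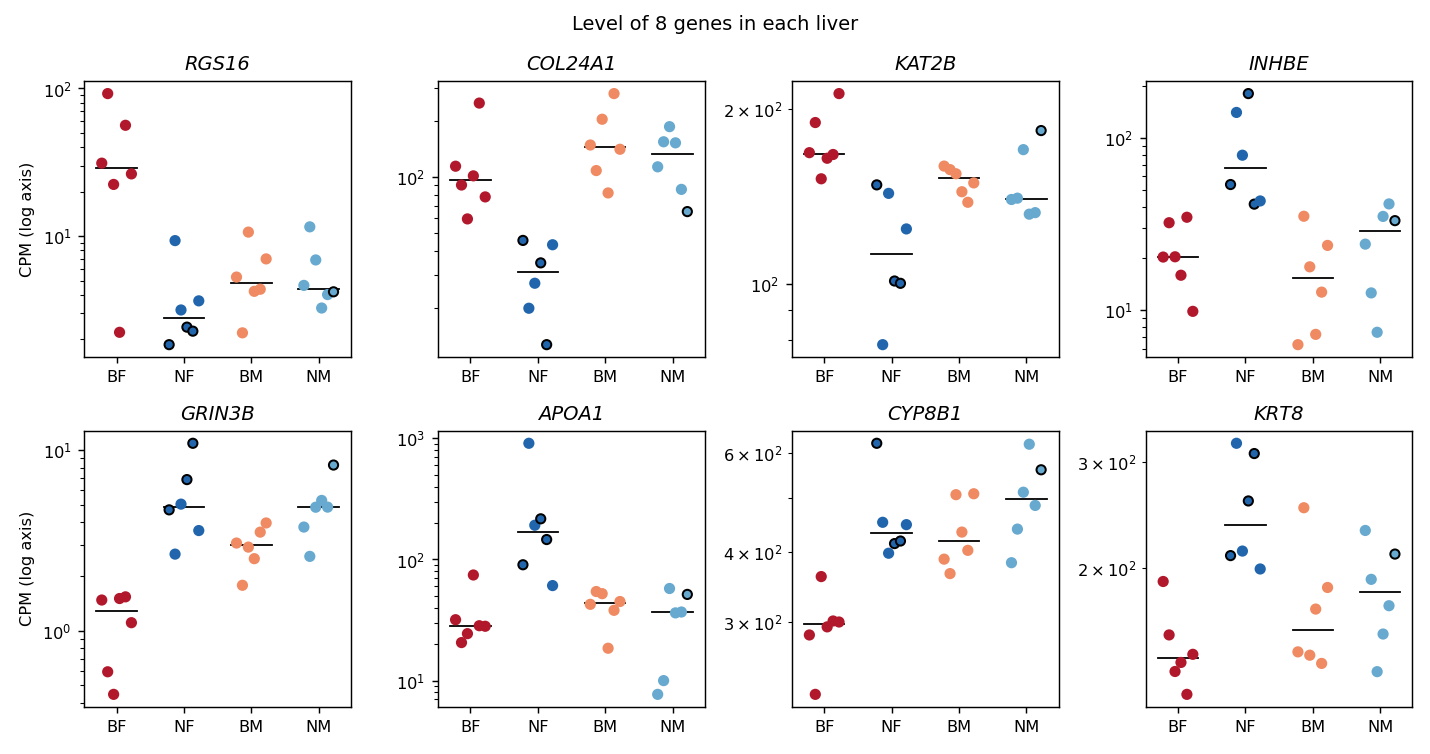
Level of 8 genes in each of the 24 livers, in CPM on a log axis. Each point is a liver, lines are group medians, and points with a black rim are the 4 livers with a TMM factor below 0.9. For COL24A1 all BF livers (59.6 to 248 CPM) lie above all NF livers (12.7 to 45.7 CPM), and for GRIN3B all BF livers (0.445 to 1.54 CPM) lie below all NF livers (2.66 to 10.9 CPM).

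Over the 12 male livers, whose levels do not enter the difference of BF and NF but share its estimate of the spread, the genes most like GRIN3B by Spearman's rho of log2(CPM + 1) were ACAN (0.96), CCDC68 (0.94) and CYS1 (0.92). These values describe 12 libraries that also share depth and composition.

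Among the 17 genes higher in BF at an FDR below 0.05, the highest log2 fold change was that of RGS16, a regulator that shortens G protein signals and responds to feeding state in mouse liver. RGS16 had 2.23, 28.8 and 92.3 CPM in BF, against 1.84, 2.79 and 9.33 CPM in NF (log2 fold change 3.34, SE 0.58, edgeR FDR 0.0233). Of the BF livers, 5 lay above every NF liver and BF 12 lay within the NF range. Males had medians of 4.83 CPM in BM and 4.42 CPM in NM (log2 fold change -0.03, SE 0.55).

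COL24A1, a fibrillar collagen chain, had 59.6, 95.8 and 248 CPM in BF, against 12.7, 30.8 and 45.7 CPM in NF (log2 fold change 1.92, SE 0.36, edgeR FDR 0.034), without overlap. The medians of males were 144 CPM in BM and 133 CPM in NM, so that NF was the group with the lowest levels. KAT2B, a histone acetyltransferase, had 152, 168 and 213 CPM in BF, against 78.6, 113 and 148 CPM in NF (log2 fold change 0.60, SE 0.13, FDR 0.0455), and medians of 152 CPM in BM and 140 CPM in NM.

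RHOT1, which tethers mitochondria to motor proteins, had 72.2 to 93.9 CPM in BF, against 51.8 to 66.5 CPM in NF (log2 fold change 0.47, SE 0.09, edgeR FDR 0.034). STXBP5, a syntaxin-binding regulator of secretion, had 16.4 to 20.6 CPM in BF and 9.16 to 15.01 CPM in NF. Neither gene overlapped between the groups. MPP7, a scaffold of cell junctions, had medians of 14.4 CPM in BF and 5.95 CPM in NF, and NMT2, which attaches myristate to proteins, 25.1 CPM in BF and 18.7 CPM in NF, the smallest log2 fold change of the 37. NF 09 and NF 11 were the lowest livers for STXBP5 and MPP7. Over the alternative fits the log2 fold change fell to 0.42 for RHOT1, 0.48 for STXBP5, 0.81 for MPP7 and 0.37 for NMT2. The main values were 0.47, 0.69, 1.05 and 0.40. The FDR reached 0.48 for RHOT1 and 0.55 for the others.

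Among the 20 genes lower in BF, APOA1 had the lowest log2 fold change. It encodes the main protein of high-density lipoprotein. APOA1 had 20.6, 28.2 and 74.5 CPM in BF, against 60.9, 169 and 911 CPM in NF (log2 fold change -2.96, SE 0.58, edgeR FDR 0.034). BF 12 was the highest BF liver and lay above the lowest NF liver, NF 13, and NF 06 alone reached 911 CPM. Without NF 06 the log2 fold change was -2.01, and the FDR with 1 liver left out ranged from 0.0201 to 0.0868. BM and NM livers stood near BF, with medians of 43.8 and 36.5 CPM.

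Of 28 genes of lipoproteins and lipid transport, 7 were lower and 0 higher in BF at an unadjusted p below 0.05 (against 10.9% and 8.19% of all genes), and the median log2 fold change was -0.17, against -0.0029 over all genes. SCARB1, the receptor that takes up cholesterol from high-density lipoprotein, had 165, 203 and 256 CPM in BF, against 243, 304 and 430 CPM in NF (log2 fold change -0.60, SE 0.15, edgeR FDR 0.0677). APOC3, an inhibitor of triglyceride clearance, had medians of 6631 CPM in BF and 7816 CPM in NF (FDR 0.245). For APOE and APOB, which carry most lipid particles to their receptors, the medians were 13142 CPM in BF and 15286 CPM in NF for APOE (FDR 0.566), and 5653 CPM in BF and 5206 CPM in NF for APOB (FDR 0.793). Without NF 03, NF 09, NF 11 and NM 30 the list had 2 higher and 2 lower. In that fit 3.2% of all genes were higher and 3.51% lower.

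Of 25 genes of bile acid synthesis and transport, 5 were lower and 0 higher in BF at an unadjusted p below 0.05. Over all genes 10.9% were lower and 8.19% higher, and the median of the list was 0.00. CYP8B1, the sterol 12-alpha-hydroxylase that directs synthesis to cholic acid, had 223, 297 and 362 CPM in BF, against 398, 433 and 625 CPM in NF (log2 fold change -0.64, SE 0.14, edgeR FDR 0.0433). SLC51A, a subunit of the basolateral bile acid exporter, had 14.8, 19.3 and 23.95 CPM in BF, against 26.2, 29.6 and 42.7 CPM in NF (log2 fold change -0.72, SE 0.14, FDR 0.0352). Neither gene overlapped between BF and NF. CYP27A1, which starts the alternative pathway of synthesis, had medians of 305 CPM in BF and 423 CPM in NF (FDR 0.0806), and NR1H4, the bile acid receptor FXR, had 132 CPM in BF and 151 CPM in NF (FDR 0.253). CYP7A1, the rate-limiting enzyme of the classic pathway, spread widely in both groups, at 20.4 to 288 CPM in BF and 10.5 to 232 CPM in NF (FDR 0.936). The canalicular exporter ABCB11 and the uptake carrier SLC10A1 had medians of 996 and 1060 CPM in BF, against 1016 and 1058 CPM in NF. Without NF 03, NF 09, NF 11 and NM 30, 3 members were lower, and the FDR was 0.537 for CYP8B1 and 0.571 for SLC51A at log2 fold changes of -0.55 and -0.45. In that fit 3.51% of all genes were lower.

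AGPAT2, an acyltransferase of triglyceride and phospholipid synthesis, had 75.0, 98.7 and 136 CPM in BF, against 123, 215 and 256 CPM in NF (log2 fold change -1.0, SE 0.21, edgeR FDR 0.0453), and its log2 fold change without the 4 livers was -0.69 (FDR 0.664). FABP5, a fatty acid binding protein, had medians of 3.15 CPM in BF and 10.7 CPM in NF, and MBOAT7, which remodels phosphatidylinositol, 49.96 CPM in BF and 91.9 CPM in NF. In AGPAT2 only BF 15 reached the NF range, and all 3 genes overlapped between the groups. KRT8, a hepatocyte keratin, had 124, 142 and 190 CPM in BF, against 199, 236 and 322 CPM in NF, without overlap. LAPTM4B, a lysosomal membrane protein, had 162 to 308 CPM in BF and 324 to 581 CPM in NF, also without overlap. CYBA, the p22phox subunit of the phagocyte oxidase, had medians of 13.1 CPM in BF and 22.5 CPM in NF, with a log2 fold change of -0.77, against -0.40 without the 4 livers. CPVL, a carboxypeptidase known from macrophages, was low throughout, at 0 to 0.377 CPM in BF and 0.494 to 1.64 CPM in NF. It was also lower in BM, with a median of 0.126 CPM, than in NM, with 0.426 CPM (log2 fold change -2.16, SE 0.60, unadjusted p = 0.00143).

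**Figure D2:**
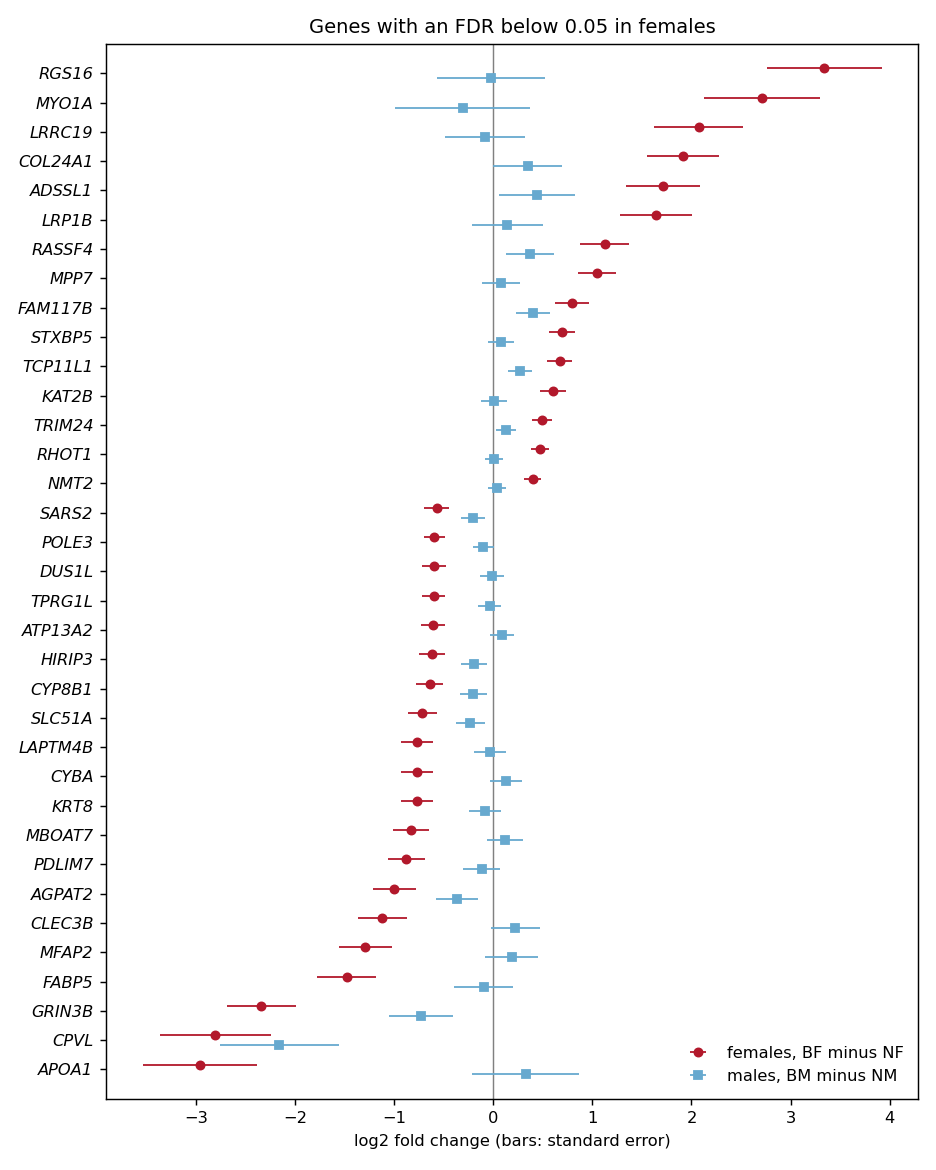
Log2 fold changes of 35 of the 37 genes with an edgeR FDR below 0.05 in females, with standard errors. Circles are females (BF minus NF) and squares are males (BM minus NM), both from 1 fit of 24 livers. The female values run from -2.96 (APOA1) to 3.34 (RGS16) because the genes were picked on them, and the male values run from -2.16 (CPVL) to 0.44 (ADSSL1).

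In males, edgeR called 0 genes between BM and NM at an FDR below 0.01 and 1 at an FDR below 0.05 (ERN1, a sensor of unfolded protein in the endoplasmic reticulum), 1225 passed an unadjusted p below 0.05, and DESeq2 called 1 at an FDR below 0.01. ERN1 had a log2 fold change of 1.27 in males and 0.35 in females (SE 0.21 each). Of the 37 genes of the females, 28 had the same sign in males and 4 passed an unadjusted p below 0.05 there. That is close to the rate over all genes, 1225 of 12474. The share of all genes with the same sign in both sexes was not computed. For 35 of the 37 the difference between the female and the male effect had an unadjusted p below 0.05, but the genes had been picked on the female values. Over all genes the interaction of sex and status gave 0 genes by edgeR and 0 by DESeq2 at an FDR below 0.01 (1168 and 1294 at an unadjusted p below 0.05), with a smallest FDR of 0.396 by edgeR.

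The hormone receptors and the growth hormone axis held 3 higher and 2 lower members of 29 at an unadjusted p below 0.05. Over all genes 8.19% were higher and 10.9% lower. The median log2 fold change of the list was 0.18. ESR1, the estrogen receptor alpha, had 6.02, 11.9 and 17.0 CPM in BF, against 3.75, 6.03 and 10.5 CPM in NF (log2 fold change 0.86, SE 0.26, edgeR FDR 0.112). BF 02 was the highest, and NF 06, NF 09 and NF 11 lay within the BF range. IGFBP1, a binding protein of insulin-like growth factors that insulin represses, had medians of 2512 CPM in BF and 1333 CPM in NF (log2 fold change 1.03, SE 0.38, FDR 0.163). CUX2, a factor expressed mainly in female liver in mice, had medians of 9.90 CPM in BF and 4.27 CPM in NF, and 1.22 CPM in BM and 0.954 CPM in NM. PRLR, the prolactin receptor, had 38.1 to 53.7 CPM in BF and 25.7 to 56.3 CPM in NF (FDR 0.765). GHR, the growth hormone receptor, had medians of 291 CPM in BF and 390 CPM in NF (FDR 0.538). IGF1 had 101 CPM in BF and 92.9 CPM in NF (FDR 0.894). None of these genes passed the threshold.

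INHBE, a hepatokine of the activin family, had 9.87, 20.4 and 34.7 CPM in BF, against 41.3, 66.5 and 181 CPM in NF (log2 fold change -2.01, SE 0.47, edgeR FDR 0.0559), without overlap. SLCO4C1, an organic anion carrier, had 21.7, 28.9 and 42.5 CPM in BF, against 7.65, 15.3 and 18.2 CPM in NF (log2 fold change 1.14, SE 0.28, FDR 0.0668), also without overlap, and only 2.44 CPM in BM and 2.35 CPM in NM at the median. Both were named after their values had been seen.

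Of 21 genes of fatty acid synthesis and desaturation, 7 were higher and 0 lower at an unadjusted p below 0.05 (ACACB, ACSS2, PNPLA3, MLXIPL, SCD, ELOVL5 and ACACA), with a median log2 fold change of 0.34, and 0 were called at an FDR below 0.01 by edgeR or by DESeq2. Over all genes 8.19% were higher and 10.9% lower. The median liver was not higher in BF: the mean log2(CPM + 1) of the list had a median of 4.35 in BF and 4.42 in NF. SCD, the desaturase that makes oleate, had 5.37, 74.2 and 568 CPM in BF, against 2.90, 41.7 and 62.5 CPM in NF (log2 fold change 2.44, SE 0.89, edgeR FDR 0.156). PNPLA3, a lipid droplet lipase, had 1.69, 5.42 and 89.1 CPM in BF, against 1.78, 5.68 and 12.2 CPM in NF. The high values came from BF 02 and BF 14: SCD stood at 375 and 568 CPM there, against 91.9 CPM in the next BF liver, BF 01, and PNPLA3 at 70.1 and 89.1 CPM, against 5.72 CPM. FASN, the synthase itself, had medians of 79.9 CPM in BF and 162 CPM in NF with 1479 CPM in BF 14 (FDR 0.713). Without BF 14 the list had 4 higher members and a median of 0.11, where 7.77% of all genes were higher. Without NF 03, NF 09, NF 11 and NM 30 the list had 4 higher and a median of 0.61, against 3.2% of all genes.

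Of 30 genes of the acute phase and of iron, 13 were lower and 0 higher at an unadjusted p below 0.05, with a median log2 fold change of -0.38, and 0 were called at an FDR below 0.01 by edgeR or by DESeq2. SAA1, serum amyloid A, had 240, 400 and 2632 CPM in BF, against 745, 3393 and 6449 CPM in NF (log2 fold change -2.13, SE 0.71, edgeR FDR 0.131). HP, haptoglobin, which binds free hemoglobin, had 1613, 2476 and 6913 CPM in BF, against 2793, 7491 and 10364 CPM in NF (log2 fold change -1.20, SE 0.45, FDR 0.167). BF 05 was the highest BF liver in both and NF 03 the lowest NF liver in both, so the groups overlapped. HPX, hemopexin, had medians of 1443 CPM in BF and 4070 CPM in NF, and SERPINA1, the main inhibitor of neutrophil elastase, 7825 CPM in BF and 10990 CPM in NF (FDR 0.0934). HAMP, hepcidin, had medians of 378 CPM in BF and 486 CPM in NF (FDR 0.498). Without NF 03, NF 09 and NM 30, 8 members were lower (6.71% of all genes were), and without NF 11 as well 6 (3.51%).

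Of 31 coagulation and fibrinolysis genes 8 were lower and 1 higher at an unadjusted p below 0.05, with a median of -0.22. Over all genes 10.9% were lower and 8.19% higher. HRG had medians of 9349 CPM in BF and 12590 CPM in NF (edgeR FDR 0.114), and FGA, a fibrinogen chain, 5437 CPM in BF and 9455 CPM in NF (FDR 0.228). Of 28 complement genes 10 were lower and 0 higher, with a median of -0.31, and 4 of these 10 (C1QA, C1QB, C1QC and VSIG4) are made by macrophages. CFB, a factor of the alternative pathway made by hepatocytes, had 1696 to 2357 CPM in BF and 2400 to 3117 CPM in NF, without overlap (log2 fold change -0.38, SE 0.14, FDR 0.158). Without NF 03, NF 09, NF 11 and NM 30 the lower members were 3 in coagulation and 2 in complement, where 3.51% of all genes were lower.

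Of 12 markers of macrophages and Kupffer cells, 10 were lower and 0 higher at an unadjusted p below 0.05, with a median log2 fold change of -0.58, and 0 were called at an FDR below 0.01 by edgeR or by DESeq2. In tissue RNA, fewer cells of a type and less RNA per cell cannot be told apart. MARCO, a scavenger receptor, had 19.98, 28.8 and 60.6 CPM in BF, against 36.8, 74.0 and 180 CPM in NF (log2 fold change -1.34, SE 0.37, edgeR FDR 0.0918). C1QA, a chain of the complement starter C1q, had 66.0, 74.9 and 94.5 CPM in BF, against 68.6, 116 and 219 CPM in NF (log2 fold change -0.76, SE 0.22, FDR 0.0987). CLEC4F, a lectin of Kupffer cells, had medians of 43.3 CPM in BF and 55.1 CPM in NF (FDR 0.162). In each of the 3 genes NF 09 was the highest liver, and the groups overlapped. The summed level of the 12 markers was 457.7 to 756.0 CPM in BF, 600.7 to 1291.4 CPM in NF, 614.1 to 1107.7 CPM in BM and 573.4 to 950.3 CPM in NM. The count of lower markers was 8 without NF 03, NF 09 and NM 30, and 1 without NF 11 as well (median -0.19), where 6.71% and 3.51% of all genes were lower. CD163 was below the filter on counts.

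Sinusoidal and vascular endothelium had 0 of 11 markers at an unadjusted p below 0.05 by edgeR and 0 by DESeq2, with a median of 0.03 and a summed level of 1103.6 to 1318.1 CPM in BF and 1014.0 to 1379.7 CPM in NF. The markers of cholangiocytes (7 tested), T and NK cells (10), B and plasma cells (6), neutrophils (5), erythroid cells (5) and exocrine pancreas (2) also had 0 by both tools. Of 11 markers of stellate cells and fibroblasts 1 was lower (DES), of 7 of adipocytes 1 (FABP4), and of 4 of smooth and striated muscle 2 (TAGLN and ACTA1). The muscle markers summed to 13.7 to 45.4 CPM in BF and 27.9 to 59.6 CPM in NF. Of the 16 hepatocyte markers 7 were lower, all of them secreted proteins except ASGR1, and the log2 fold changes were -0.02 for ALB (SE 0.15) and 0.03 for CYP2E1 (SE 0.18). FGA, FGB, SERPINA1, TF and AHSG among them also stand in the lists of coagulation or acute phase, and APOA1 in that of lipoproteins.

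**Figure D3:**
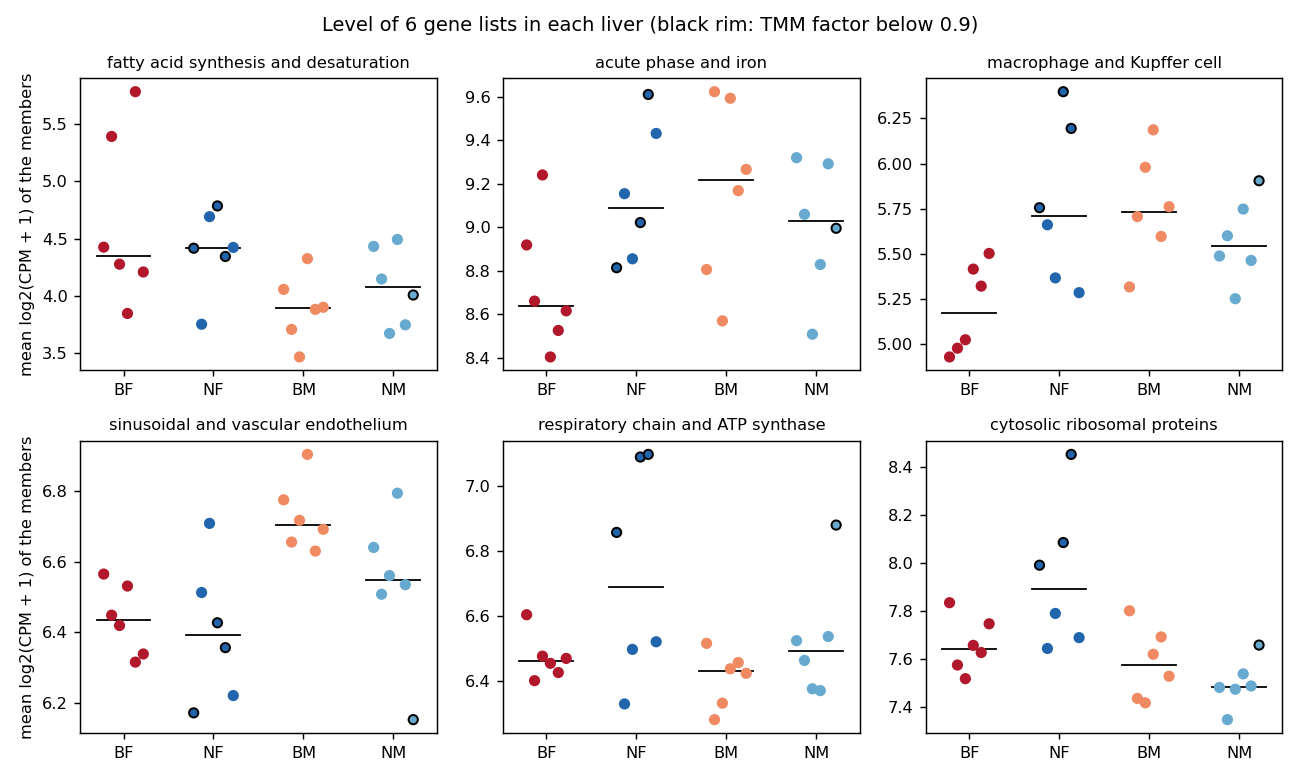
Level of 6 gene lists in each liver, as the mean of log2(CPM + 1) over the members tested. Lines are group medians and points with a black rim are NF 03, NF 09, NF 11 and NM 30. These 4 livers hold the 4 highest respiratory chain levels (6.86 to 7.10), while BF 02 and BF 14 stand highest for fatty acid synthesis (5.39 and 5.78).

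Of 73 respiratory chain and ATP synthase genes 39 were lower and 0 higher in BF at an unadjusted p below 0.05, with a median log2 fold change of -0.30. Over all genes 10.9% were lower and 8.19% higher. Of 79 cytosolic ribosomal proteins, a list added after the data were seen, 60 were lower and 0 higher, with a median of -0.31. At an FDR below 0.01 edgeR called 0 of both lists, and DESeq2 called 0 respiratory and 1 ribosomal gene. RPL3, a protein of the large ribosomal subunit, had 409, 450 and 566 CPM in BF, against 502, 648 and 1043 CPM in NF (log2 fold change -0.57, SE 0.13, edgeR FDR 0.0559). NDUFB7, a subunit of complex I, had 32.6, 41.5 and 56.0 CPM in BF, against 44.8, 61.1 and 98.7 CPM in NF (FDR 0.0934). NF 11 was highest for RPL3 and NF 09 for NDUFB7. ATP5B, a catalytic subunit of ATP synthase, had medians of 1046 CPM in BF and 1146 CPM in NF (FDR 0.566). Without NF 03, NF 09 and NM 30 the counts of lower genes were 4 respiratory and 29 ribosomal genes, where 6.71% of all genes were lower. Without NF 11 as well they were 0 and 1, with medians of 0.04 and -0.04, where 3.51% of all genes were lower. In males the respiratory list had 5 lower and 0 higher and the ribosomal list 0 in either direction. Over all 12474 genes 470 were lower and 755 higher in BM at that threshold.

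Of 37 genes of the endoplasmic reticulum and secretion 10 were lower and 1 higher, with a median of -0.21. At this unadjusted p below 0.05, 10.9% of all genes were lower and 8.19% higher. HSP90B1 and CALR, chaperones of the secretory pathway, had medians of 672 and 848 CPM in BF, against 929 and 1098 CPM in NF (edgeR FDR 0.139 and 0.151). NF 06 and NF 09 were the highest livers in both. The count of lower genes was 11 without NF 03, NF 09 and NM 30, 8 without NF 11 as well, and 4 without NF 06. Over all genes 6.71%, 3.51% and 11.4% were lower in these fits, in that order. Without NF 06 the list of 37 thus stood near the share of all genes. Of 34 antioxidant genes 9 were lower, among them HMOX1, heme oxygenase, with medians of 68.3 CPM in BF and 103 CPM in NF (FDR 0.106). The count was 1 without NF 03, NF 09, NF 11 and NM 30, where 3.51% of all genes were lower.

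The counts for fat oxidation and sugar metabolism are at an unadjusted p below 0.05, where 8.19% of all genes were higher and 10.9% lower. Of 32 genes of fatty acid oxidation and ketogenesis 8 were lower and 1 higher, the higher one being PPARGC1A, a coactivator raised by fasting, with medians of 68.4 CPM in BF and 36.1 CPM in NF (edgeR FDR 0.212). Of 33 genes of glycolysis, gluconeogenesis and glycogen 7 were lower and 3 higher. GPI had 150, 279 and 599 CPM in BF, against 134, 154 and 220 CPM in NF (log2 fold change 0.95, SE 0.24, FDR 0.0677), and PFKL, the liver phosphofructokinase, had medians of 49.8 CPM in BF and 77.4 CPM in NF (FDR 0.0715). Both were named after their values had been seen. Without NF 03, NF 09, NF 11 and NM 30, 1 gene of fat oxidation was lower, and 1 gene of sugar metabolism was lower and 2 were higher. In that fit 3.51% of all genes were lower and 3.2% higher.

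Cholesterol synthesis had 2 higher and 1 lower of 28, the urea cycle and amino acid catabolism 0 higher and 3 lower of 40, cytochrome P450 and flavin monooxygenases 1 higher and 1 lower of 25, the interferon response 1 higher and 1 lower of 34, and the extracellular matrix 1 higher and 1 lower of 39 at an unadjusted p below 0.05. CPS1, the first enzyme of the urea cycle, had medians of 5693 CPM in BF and 6937 CPM in NF (edgeR FDR 0.983), and CYP3A4 had 1694 CPM in BF and 1886 CPM in NF (FDR 0.915). Cell division genes had 1 higher and 4 lower of 37, with a median of -0.33. Among all genes 8.19% were higher and 10.9% lower at the same threshold. Conjugating enzymes had 1 higher and 6 lower of 30, antigen presentation 0 higher and 5 lower of 21, and circadian clock genes 3 higher and 1 lower of 19. Triglyceride synthesis and storage, which holds AGPAT2, had 0 higher and 3 lower of 23, nuclear receptors 4 higher and 2 lower of 25, immediate early factors 2 and 2 of 27, heat shock proteins 0 and 3 of 28, and organic ion and metabolite transporters 5 and 4 of 35. NR1D1, a repressor of the clock whose level swings over the day, had medians of 5.99 CPM in BF and 10.0 CPM in NF (FDR 0.197) and of 7.70 CPM in BM and 22.05 CPM in NM (unadjusted p = 0.000113). NR1D1 did not pass an FDR below 0.05 in males either, where ERN1 was the only gene to do so.

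**Figure D4:**
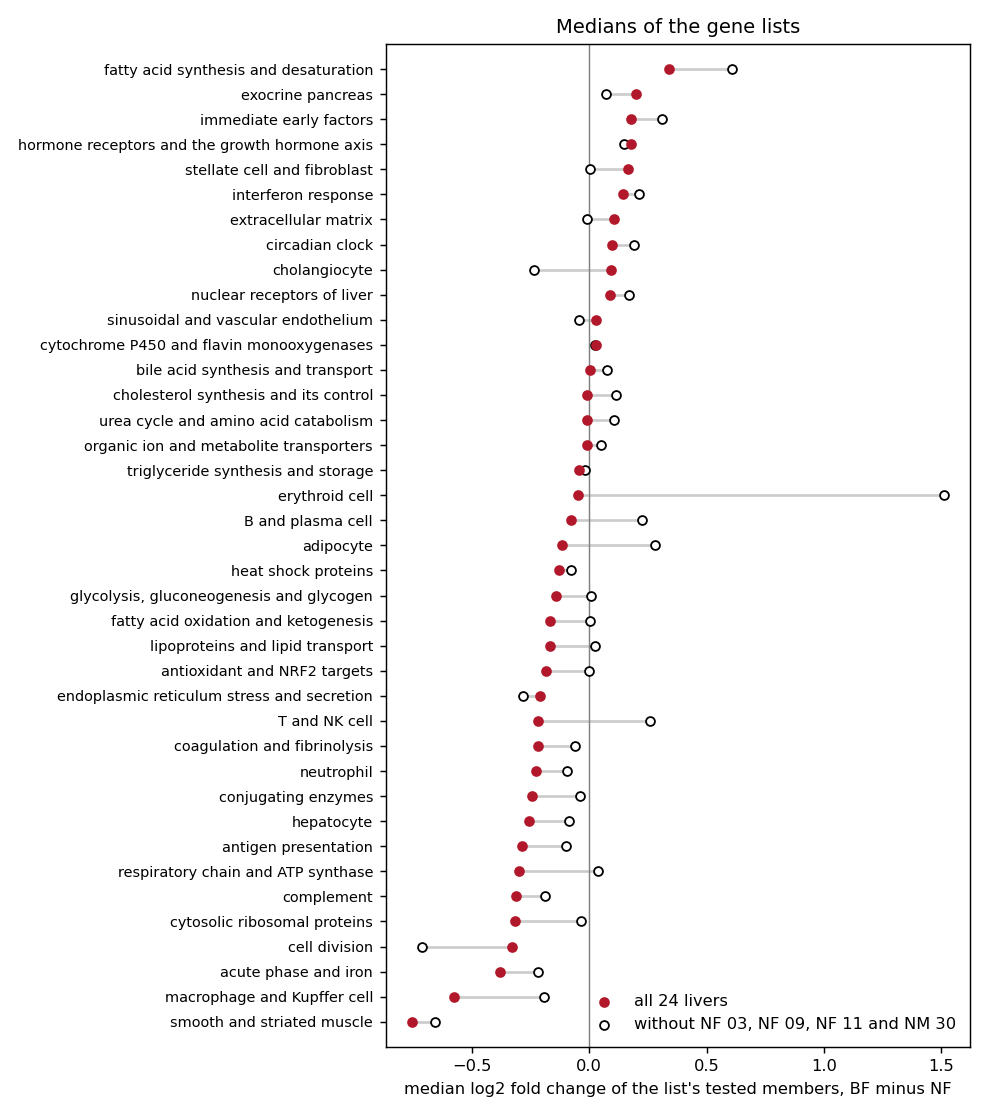
Median log2 fold change (BF minus NF) of the tested members of each of 39 gene lists. Filled points use all 24 livers and open points leave out NF 03, NF 09, NF 11 and NM 30. The median of the respiratory chain moves to 0.04, against -0.30 with all livers, and that of fatty acid synthesis to 0.61, against 0.34.

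The same 37 genes were set beside the contrast of BF and NF in the other tissues of these animals, with 5 BF in thyroid and 6 elsewhere. In 9 other tissues 33 to 35 of the 37 passed the filter on counts, and edgeR called 0 of them at an FDR below 0.01 in any tissue, with 0 to 9 at an unadjusted p below 0.05. The number with the sign they had in liver was between 12 in skin and 27 in ovary. Over all genes edgeR called 2 in pituitary and 0 in each of the others at an FDR below 0.01. Only edgeR was run in these tissues, and in liver the count depended on the tool (2 by edgeR, 73 by DESeq2). The study, which used DESeq2, reported more genes for this contrast in pituitary and in thyroid. A count of 0 here therefore does not show that a tissue was unchanged. The shares of all genes at an unadjusted p below 0.05, or with the sign of liver, were not computed there. The counts of the 37 in these tissues therefore cannot be set against a background. GRIN3B had log2 fold changes of -0.86 in heart (unadjusted p = 0.0219), -0.41 in kidney, 0.35 in thyroid and 0.01 in skin. COL24A1, higher in BF livers, had -1.40 in skin (unadjusted p = 1.67e-05, edgeR FDR 0.143), at means of 0.574 CPM in BF and 1.52 CPM in NF. MPP7, also higher in BF livers, had -0.93 in thyroid (FDR 0.0418). APOA1 had -0.38 in heart (unadjusted p = 0.0399, edgeR FDR 0.99965). CPVL, lower in BF livers, had positive log2 fold changes in heart (2.23), kidney (2.26) and ovary (0.93), with edgeR FDRs of 0.99965, 0.415 and 0.385. FAM117B, with a log2 fold change of 0.79 in liver, had -0.91 in thyroid (FDR 0.0143).

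**Figure D5:**
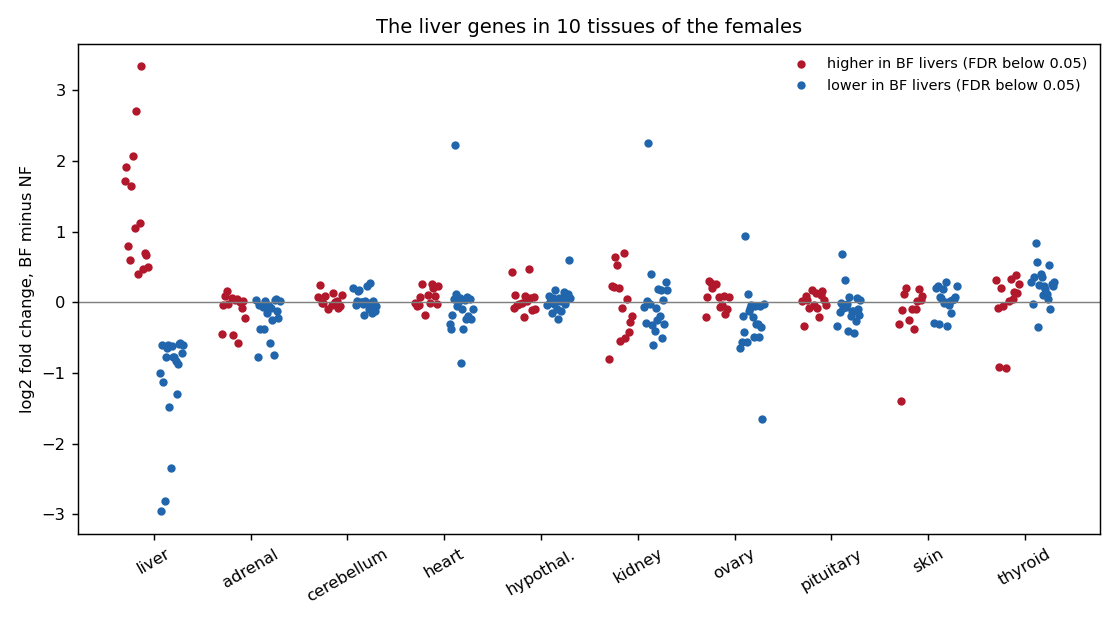
Log2 fold changes (BF minus NF) in 10 tissues of the same females for 35 of the 37 genes with an edgeR FDR below 0.05 in liver. Each point is a gene, grouped by its sign in liver, and the liver values are those the genes were picked on. Outside liver the values run from -1.66 (SLC51A in ovary) to 2.26 (CPVL in kidney).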

How the data were processed

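RNA of guinea pig tissues was sequenced single-end with a kit that does not keep the strand, so genes overlapping on opposite strands cannot be told apart. Per the labels and the study's methods, STAR 2.4.1d placed the reads on cavPor3, multi-mapped reads were dropped, and HTSeq counted the others on assembled transcripts carrying human gene symbols. The authors deposited raw counts (16009 genes, 238 libraries, of which 24 are livers). Rows holding a date in place of a symbol (27) were fitted but not named.

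All 24 livers entered 1 model in edgeR 4.0.16 (R 4.3.3): filterByExpr (min.count 10, min.total.count 15), TMM scaling and a robust quasi-likelihood test. Contrasts were BF minus NF, BM minus NM and their difference. P-values were adjusted over all genes by Benjamini-Hochberg and called at an FDR below 0.01. SE is the log2 fold change over the square root of F. Other tissues were fitted alike, without the thyroid of NM 19, which the study leaves out. The code was tested on simulated data.

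The members were defined by column label, but this choice and that of the gene lists were made with earlier results of these data known. Named were the called genes, ALB, ESR1, PRLR, GHR, IGF1, up to 4 members per list with the highest CPM, and genes chosen after their values were seen (the 37 genes and other examples). Alternatives were DESeq2 1.42.0, 1 sex alone, other scalings, no filter, no robust fit, no males of 0.74 years, and leaving out each liver or those that stand apart. The results of some genes are not reported here.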

Additional observations from a re-analysis of the deposited data

Results flagged for a closer look

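Among 89 named genes in 2 groups of 6 livers (178 groups), 4 groups held a liver far from the other 5 by Dixon's test, and chance alone would give about 0.05 of the groups. APOA1 was at 74.45 CPM in BF 12, against 20.6 to 31.8 CPM in the other BF livers. CYP8B1 was at 624.6 CPM in NF 03, where the other NF livers had 398 to 452 CPM. MYO1A, an intestinal-type myosin, was at 0.1315 CPM in NF 03, where the others had 0.455 to 0.654 CPM. KLF9, a transcription factor induced by glucocorticoids in rodents, was at 93.83 CPM in NF 06, where the others had 151 to 191 CPM. No library held more than 2 of these values.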

How the results depend on the processing

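The count of 2 genes between BF and NF at an FDR below 0.01 moved with several settings and stayed at 2 with other scalings, no filter, no robust fit and without the 4 males of 0.74 years. It was 0 with the 12 females alone, 73 with DESeq2 on all 24 livers, 43 with DESeq2 on the females, 37 at an FDR below 0.05, 1 without NF 03, NF 09 and NM 30, and 0 without NF 11 as well. At an FDR below 0.05, edgeR had 0 genes with the 12 females alone, 3 without NF 03, NF 09 and NM 30 and 1 without NF 11 as well. These last 2 settings and the FDR of 0.05 were chosen after seeing the data. With 1 liver left out at a time the count ranged from 0 to 4, and it was 0 in 5 of 12 such fits. At an FDR below 0.05 that count ranged from 2 to 192. The males had 1 gene with DESeq2. All 37 genes kept their sign under every alternative that could be fitted. They had been picked on these livers, and every alternative reuses most of the same livers, so this was nearly fixed in advance. Their FDRs reached 0.84 (CLEC3B, whose log2 fold change ranged from -1.29 to -0.34). The counts of lower respiratory and ribosomal genes ranged from 16 to 57 and from 21 to 68 with 1 liver left out. No paired analysis was possible because BF and NF livers come from different animals that share no number. CPVL, at 0 to 1.64 CPM in the females, rests on few reads. The cause of these shifts was not tested.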
